A study of Homo sapiens with 8 samples.

Results

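Semaphorins, plexins, SLITs, ROBO receptors, netrins, netrin receptors and teneurins were examined as 1 set of axon-guidance genes. The members were all rows of the expression table whose symbols name one of these families, which gave 51 of 18787 genes. They comprised 19 semaphorins, 9 plexins, 3 SLITs, 4 ROBO receptors, 6 netrins, 6 netrin receptors and 4 teneurins. The teneurins are listed under their older symbols, ODZ1 to ODZ4, for TENM1 to TENM4. Of the 51, 45 reached a normalised value of 10 in at least 2 libraries and were tested. The 6 that did not were SEMA3D, SLIT1, ROBO2, NTN3, NTN5 and ODZ1.

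RNA was sequenced from T98 and U87, established human glioblastoma lines, 72 h after transfection with Lipofectamine RNAiMAX. The 4 groups were T98 with an siRNA against LKB1, T98 with a control siRNA, U87 with the LKB1 siRNA and U87 with the control siRNA, with 2 libraries each. LKB1 is the kinase encoded by STK11, and the study asked which genes differ when it is silenced. The series' design text calls the cells duplicated without saying whether the duplicates were separate transfections, so each p-value is set against the spread of these libraries alone, a spread that could be technical.

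These families carry signals between neighbouring cells and are best known from growing axons. Semaphorins bind plexins, often with a neuropilin as co-receptor. SLITs bind ROBO receptors, and the netrin NTN1 binds DCC, neogenin (NEO1) and the UNC5 receptors. Teneurins are large transmembrane proteins that bind latrophilins across cell contacts. In glioma many of these genes are known for effects on cell movement and on vessel growth.

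Values are the authors' normalised values, which behave as read counts moved to a common library size, and recovered reads totalled 25223747 to 38019178 per library. Each group had 1 library on sequencing lane 2, and its other library on lane 4 for T98 or on lane 5 for U87, per the column headers. Libraries of a group on different lanes differed widely. The SD of the log2 difference between a group's 2 libraries was 0.9 to 1.13 over the tested members and 0.86 to 0.89 over all tested genes. Libraries of 1 line shifted together between its lanes. Lane and replicate cannot be told apart here, since a group's 2 libraries differ in both. Results are therefore given from a fit of group means alone and from a fit with an added lane term for each line. STK11 was 340 and 588 in T98 with LKB1 siRNA, against 1999 and 2041 with control siRNA, and 361 and 385 in U87 with LKB1 siRNA, against 2445 and 2041 with control siRNA. Its fall was 2.17 in T98 and 2.58 in U87 (log2, adjusted p = 0.0824 and 0.0466 with group means, 0.00254 and 0.00195 with the lane term). Of the glioma and astroglial markers, VIM lay between 34020 and 292296 and CD44 between 37284 and 63018. NES was 16.2 to 123 in T98 and 1361 to 2073 in U87, and OLIG2 was 25.5 to 70.4 over all libraries. S100B and SOX2 did not exceed 3.48 in any library and GFAP did not exceed 50.7. Because whole cultures were sequenced, fewer cells carrying a transcript and less transcript per cell cannot be told apart.

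The heat map of values by library shows the wide range of levels across the set and the contrast between the lines. Among ligands, SEMA3C, a secreted semaphorin, was high in every library, at 6253 on lane 2 and 7523 on lane 4 in T98 with LKB1 siRNA, against 7271 and 7200 with control siRNA. In U87 SEMA3C was 5600 on lane 2 and 4322 on lane 5 with LKB1 siRNA, against 6041 and 6071 with control siRNA. Among receptors, PLXNB2, which binds class 4 semaphorins, had the highest value of the plexins in every library, at 6005 to 12343. Per kilobase of transcript, the control level of SEMA3C was 1394 in T98 and 1166 in U87, and that of PLXNB2 was 1248 in T98 and 1060 in U87.

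**Figure D1:**
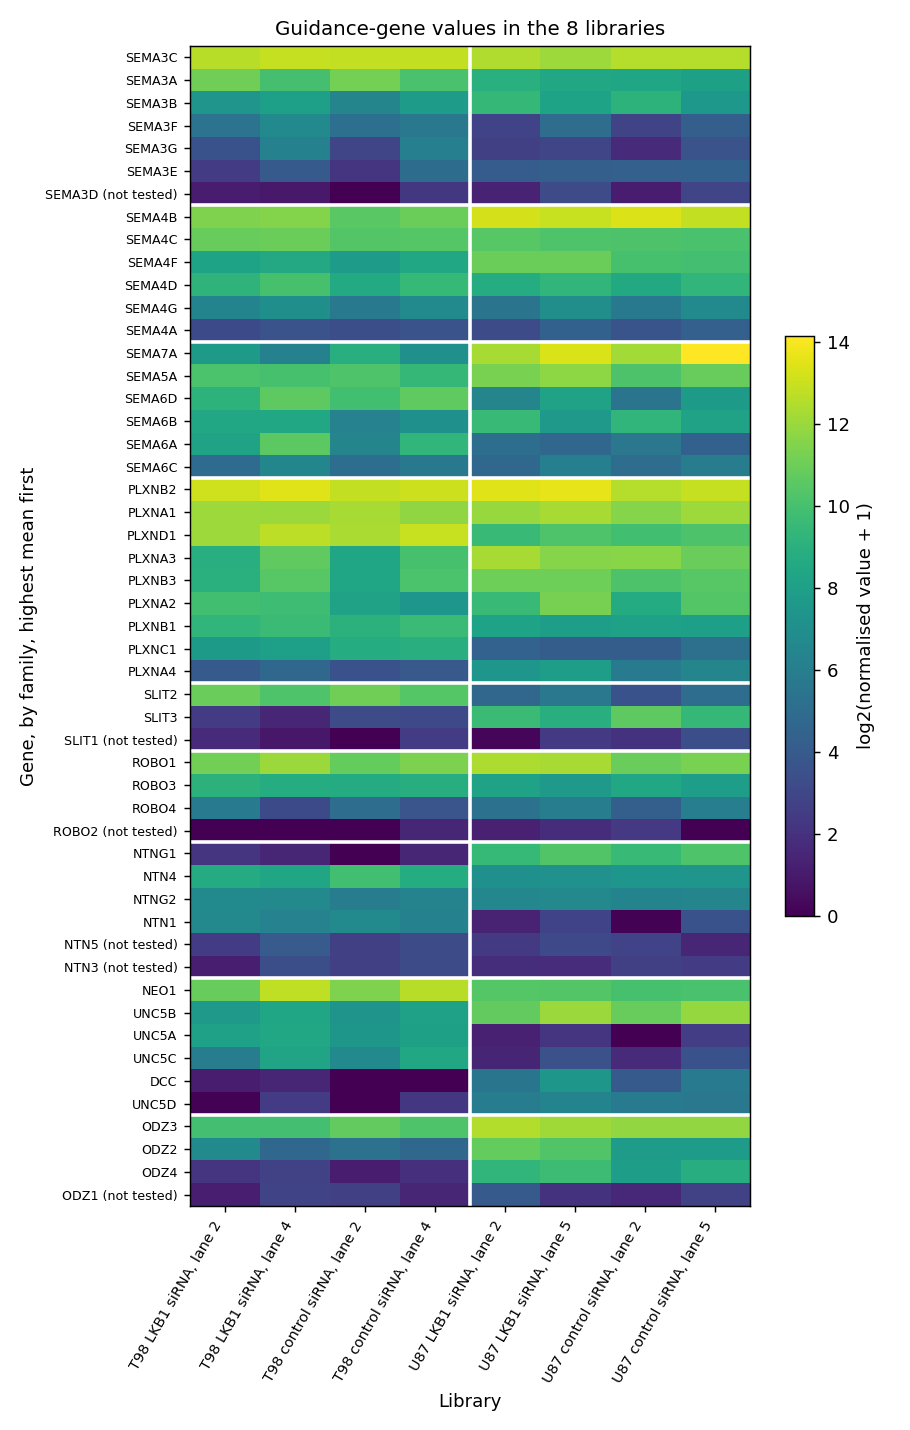
Heat map of log2(normalised value + 1) for the 51 genes (rows, by family) in the 8 libraries (columns, with LKB1 siRNA left of control siRNA within each line). SEMA3C and PLXNB2 are high in every column, whereas NTNG1, SLIT3, ODZ4 and DCC are below a value of 10 in every T98 library and above it in every U87 library.

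Promoter sequence was examined because several plexins and class 4 semaphorins passed as higher with LKB1 siRNA in at least 1 line with the lane term. Whether they moved together was not tested. The 250 bases before the gene start were taken from RefSeq (GRCh38.p14), which matched 42 of the 51 members. Of those 42, 24 held a GC box (GGGCGG on either strand), against 42.6% of all 35116 promoters of that length, 9 held TGACG on either strand, against 21.2%, and 1 held the full cAMP response element TGACGTCA, against 1.65%. The shorter TGACG lies within TGACGTCA, so the 1 full element is also counted among the 9. The 35116 promoters were not limited to 1 per symbol or to genes of the expression table, as the members were. The shares are therefore not like for like. These matches describe letters in a window and say nothing of factor binding. PLXNA2 and PLXNA3 are printed because both passed the threshold in both lines with the lane term, ROBO1 because it had one of the larger differences in U87, and SEMA4C because it held the full element. Capitals mark the GC boxes, TGACG and TGACGTCA. The windows are chr1:208244385-208244634 (minus strand) for PLXNA2, chrX:154458031-154458280 (plus strand) for PLXNA3, chr3:79767999-79768248 (minus strand) for ROBO1 and chr2:96870081-96870330 (minus strand) for SEMA4C.
PLXNA2: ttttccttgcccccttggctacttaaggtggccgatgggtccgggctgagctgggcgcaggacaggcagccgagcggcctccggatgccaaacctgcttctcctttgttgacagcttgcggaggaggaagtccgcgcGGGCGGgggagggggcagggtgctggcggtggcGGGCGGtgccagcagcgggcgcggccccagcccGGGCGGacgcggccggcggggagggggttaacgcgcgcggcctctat
PLXNA3: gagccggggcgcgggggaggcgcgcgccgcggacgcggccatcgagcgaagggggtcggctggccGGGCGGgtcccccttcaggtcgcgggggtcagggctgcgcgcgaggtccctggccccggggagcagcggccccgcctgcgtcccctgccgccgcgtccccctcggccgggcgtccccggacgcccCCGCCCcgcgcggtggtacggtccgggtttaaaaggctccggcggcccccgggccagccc
ROBO1: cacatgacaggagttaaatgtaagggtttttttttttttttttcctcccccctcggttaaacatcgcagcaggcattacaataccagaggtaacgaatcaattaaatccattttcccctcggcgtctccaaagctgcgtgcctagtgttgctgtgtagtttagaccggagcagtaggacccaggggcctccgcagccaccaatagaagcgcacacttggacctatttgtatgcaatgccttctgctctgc
SEMA4C: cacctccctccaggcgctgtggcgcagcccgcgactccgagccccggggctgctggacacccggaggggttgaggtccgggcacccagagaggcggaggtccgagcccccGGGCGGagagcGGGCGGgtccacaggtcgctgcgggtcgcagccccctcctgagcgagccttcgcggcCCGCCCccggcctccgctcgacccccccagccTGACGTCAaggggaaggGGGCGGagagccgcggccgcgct
PLXNA2 holds 3 GC boxes, PLXNA3 holds 2, SEMA4C holds 4 and ROBO1 holds none of the 3 motifs.

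LKB1 siRNA was set against control siRNA within each line. With group means alone, 0 of the 45 members passed an adjusted p of 0.05 in T98, in U87 or in the mean of both effects (limma-trend, two-sided, Benjamini-Hochberg over 14282 genes), where 0.028%, 0.056% and 1.86% of all tested genes passed. At an unadjusted p under 0.05 there were 5 members in T98, against 10.5% of all genes, 6 in U87, against 8.88%, and 10 in the mean effect, against 15.8%. edgeR without a lane term also called 0 members in T98, U87 and the mean effect, where it called 0.021%, 0% and 1.31% of all genes. DESeq2 called 0 in T98, against 2.44% of all genes, 4 in U87, against 3.47%, and 5 in the mean effect, against 7.24%. It gave no adjusted p for some genes, among them DCC and NTN1 in both lines and PLXNA4 in U87. Such genes were counted as not called, and the DESeq2 shares are of all 14282 genes.

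With the lane term, 10 members passed in T98, where 15.8% of all genes did, and 7 were higher with LKB1 siRNA and 3 lower, against 8.48% and 7.33% of all genes in each direction. In U87 11 passed, where 11.2% of all genes did, and all 11 were higher, against 5.29% of all genes higher and 5.91% lower. In the mean of both effects 18 passed, where 26.4% of all genes did, 15 higher and 3 lower, against 13.2% and 13.2% of all genes in each direction. These counts include SLIT3 in T98 and in the mean effect, and DCC and ODZ4 in the mean effect. All of these passed the filter on low values only through U87. The median log2 difference of the 45 members was 0.31 in T98, 0.29 in U87 and 0.32 in the mean effect, against 0.02, -0.00 and 0.00 over all tested genes. These calls rest on 2 residual degrees of freedom: leaving out any 1 of the 4 U87 libraries left 0 members called in T98, in U87 and in the mean effect, and leaving out either T98 lane 2 library left 1 in T98. Without a U87 library the spread comes from T98 alone. Without either T98 lane 4 library there were 12 in T98, and without any 1 T98 library there were 14 in U87.

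Direction within lanes does not rest on a fit. LKB1 siRNA was above control siRNA in all 4 lane pairs for 15 members, or 33.3% of the 45, against 21.7% of all tested genes, and below it in all 4 for NTN4, SLIT3 and UNC5C, or 6.67%, against 21.3%. In U87 both LKB1 libraries lay above both control libraries for 14 members, or 31.1%, against 17.6% of all genes, and below both for NTN4, SEMA3C and SEMA3E, or 6.67%, against 20.2%. In T98 the counts were 10 above, or 22.2%, against 20.5%, and 4 below, or 8.89%, against 20.5%. Some of these directions rest on few reads. DCC, ODZ4 and UNC5D among the 15 and SLIT3 among those below passed the filter only through U87. On T98 lane 2 UNC5D had 0 reads with either siRNA, so its direction there is no observed difference. UNC5C had 1 and 12 reads in U87 with LKB1 siRNA, against 2 and 11 with control siRNA. DCC, ODZ4 and SLIT3 also enter the T98 counts without overlap.

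**Figure D2:**
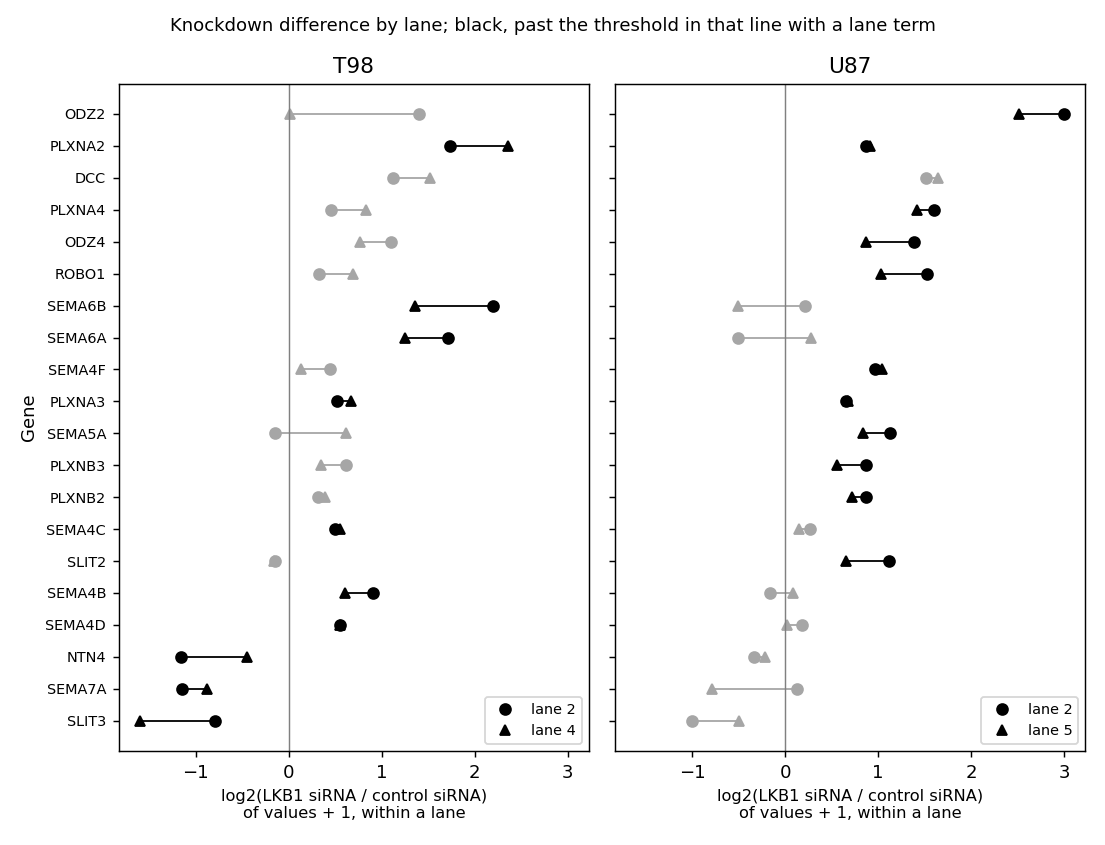
The log2 ratio of LKB1 siRNA to control siRNA, computed on values + 1 within each lane (circles, lane 2; triangles, lane 4 in T98 and lane 5 in U87), for the 20 members that passed the threshold with the lane term in T98, in U87 or in the mean effect. Black marks members past the threshold in that line. ODZ2 lies at 2.52 in U87 on lane 5 and higher still on lane 2, and SLIT3 and NTN4 lie below 0 in all 4 lane pairs.

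Of the 9 tested plexins, the receptors for semaphorins, 2 passed in the limma-trend fit with the lane term in T98, or 22.2%, against 15.8% of all genes, and 5 in U87, or 55.6%, against 11.2%. All were higher with LKB1 siRNA. PLXNA2, a class A receptor at chr1:208195587-208417665 (hg19), was 933 on lane 2 and 871 on lane 4 in T98 with LKB1 siRNA, against 280 and 169 with control siRNA. In U87 it was 755 on lane 2 and 2433 on lane 5 with LKB1 siRNA, against 413 and 1291 with control siRNA. The T98 groups did not overlap, whereas in U87 the lane 5 library was the higher in each group and the groups overlapped. PLXNA2 rose with the lane term by 2.05 ± 0.18 in T98 (log2, SE, adjusted p = 0.00249) and by 0.89 ± 0.18 in U87 (adjusted p = 0.0202). Group means alone gave adjusted p of 0.363 in T98 and 0.898 in U87.

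PLXNA3, a class A receptor on the X chromosome, was 476 and 1670 in T98 with LKB1 siRNA, against 331 and 1050 with control siRNA. In U87 it was 4991 and 3056 with LKB1 siRNA, against 3188 and 1913 with control siRNA. Both lines had overlapping groups and opposite lane gaps, with lane 4 the higher in T98 and lane 2 the higher in U87, yet the 4 within-lane differences lay between 0.52 and 0.68. It rose with the lane term by 0.60 ± 0.12 in T98 (adjusted p = 0.0222) and by 0.66 ± 0.12 in U87 (adjusted p = 0.0158). In the fit of group means, the T98 difference turned to -0.31 without the LKB1 library on lane 4 and to -0.24 without the control library on lane 2.

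PLXNA4, which binds class 6 semaphorins and shares class 3 signals with neuropilins, was 15 and 26.1 in T98 with LKB1 siRNA, against 10.7 and 14.3 with control siRNA. U87 had 169 and 232 with LKB1 siRNA, against 55.0 and 86.0 with control siRNA. Neither line had overlapping groups, and PLXNA4 rose with the lane term in U87 by 1.51 ± 0.27 (adjusted p = 0.0146), while T98 gave 0.64 ± 0.27 (adjusted p = 0.145). PLXNB2 was 9039 and 11286 in T98 with LKB1 siRNA, against 7276 and 8623 with control siRNA, and 10964 and 12343 in U87 with LKB1 siRNA, against 6005 and 7507 with control siRNA. The groups of both lines stood apart. It rose with the lane term in U87 by 0.79 ± 0.12 (adjusted p = 0.00658), and T98 gave 0.35 ± 0.12 (adjusted p = 0.0764).

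PLXNB3, a receptor for SEMA5A, was 511 and 1427 in T98 with LKB1 siRNA, against 332 and 1118 with control siRNA, and the T98 groups overlapped. In U87 it was 2105 and 2094 with LKB1 siRNA, against 1151 and 1421 with control siRNA, and rose with the lane term by 0.71 ± 0.15 (adjusted p = 0.0216). The 4 other plexins, PLXNA1, PLXNB1, PLXNC1 and PLXND1, passed in neither line by this fit. PLXNC1, a receptor for SEMA7A, was 204 and 249 in T98 with LKB1 siRNA, against 424 and 468 with control siRNA. Its T98 groups did not overlap and the lane-term difference was -0.98 ± 0.33 (adjusted p = 0.0836), which passed in edgeR with the lane term (adjusted p = 0.02).

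**Figure D3:**
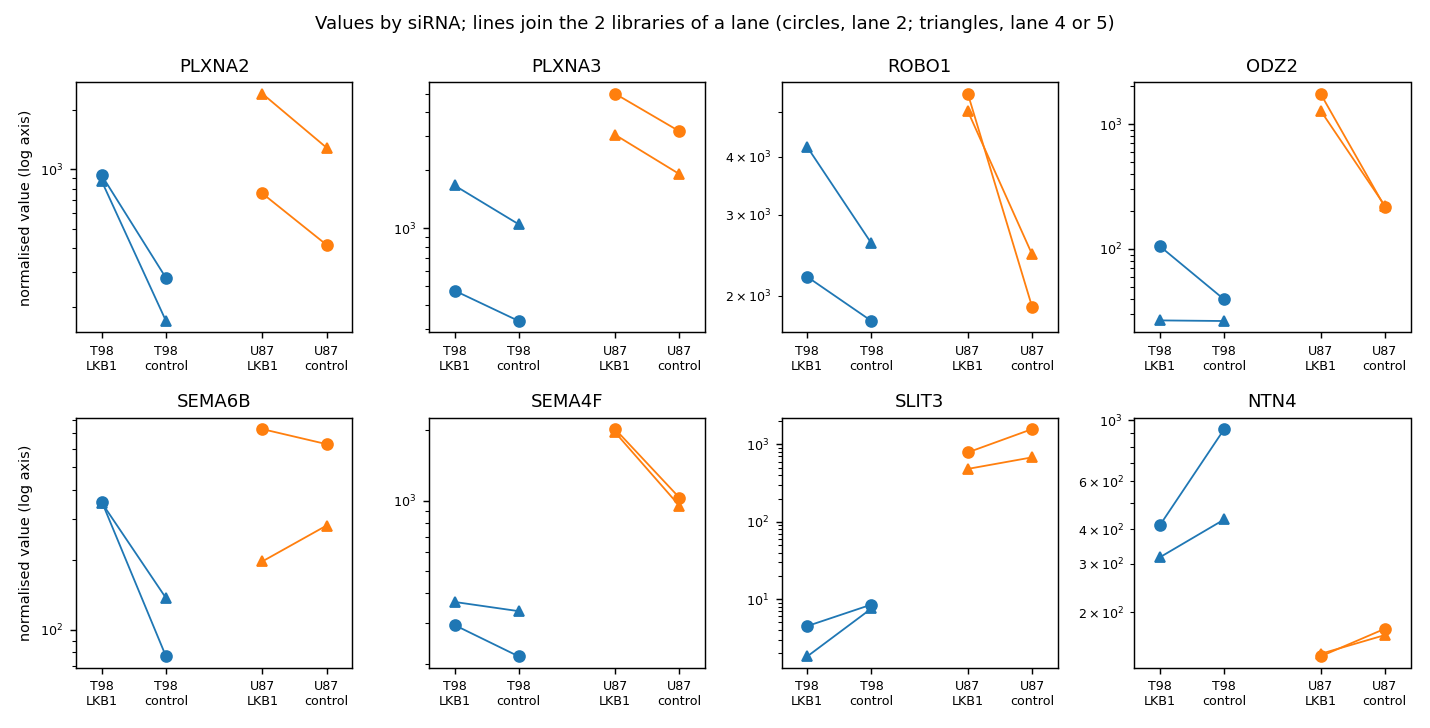
Normalised values (log axis) of 8 genes by line and siRNA, with LKB1 siRNA left of control siRNA and a line joining the 2 libraries of each lane (circles, lane 2; triangles, lane 4 in T98 and lane 5 in U87). Lines fall to the right for PLXNA2, PLXNA3, ROBO1, ODZ2 and SEMA4F in both lines, where LKB1 siRNA is the higher, and climb to the right for SLIT3 and NTN4. The ODZ2 line of lane 4 in T98 is nearly flat, at 26.8 with LKB1 siRNA and 26.5 with control siRNA.

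Among the membrane-bound class 4 semaphorins, 3 of 6 passed with the lane term in T98, where 15.8% of all genes did, and 1 in U87, where 11.2% did, all higher. SEMA4B was 2734 and 2963 in T98 with LKB1 siRNA, against 1453 and 1957 with control siRNA, without overlap. It rose in T98 by 0.76 ± 0.13 (lane term, adjusted p = 0.0143), while U87 had 9747 and 7823 with LKB1 siRNA, against 10889 and 7390 with control siRNA, and gave -0.04 ± 0.13 (adjusted p = 0.881). SEMA4C, a ligand of PLXNB2, was 1870 and 2003 in T98 with LKB1 siRNA, against 1326 and 1372 with control siRNA, and in U87 1400 and 1219, against 1161 and 1096. Both lines had groups apart, the lanes differed little, and SEMA4C rose in T98 by 0.52 ± 0.12 (lane term, adjusted p = 0.0324). SEMA4D, the classical ligand of PLXNB1, was 591 and 1037 in T98 with LKB1 siRNA, against 404 and 709 with control siRNA. Its difference was 0.55 in each T98 lane, 0.55 ± 0.14 in the lane-term fit (adjusted p = 0.0431), and the groups overlapped across lanes. Neither the SEMA4C nor the SEMA4D call in T98 was kept by any lane-term fit that left out 1 library. Their differences in those fits were 0.50 to 0.55 for SEMA4C and 0.55 for SEMA4D.

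SEMA4F was 2025 and 1961 in U87 with LKB1 siRNA, against 1030 and 951 with control siRNA, with each group closely spaced and no overlap. It rose in U87 by 1.01 ± 0.15 (lane term, adjusted p = 0.00711, and DESeq2 adjusted p = 0.0176). In T98 it was 293 and 368 with LKB1 siRNA, against 215 and 336 with control siRNA, a difference of 0.29 ± 0.15 (adjusted p = 0.217). SEMA4A and SEMA4G passed in neither line. SEMA4G overlaps MRPL43 on the opposite strand by 7796 bases, and the library kit keeps no strand, so its values are uncertain.

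Of the 6 tested semaphorins of classes 5 to 7, 2 passed higher and 1 lower in T98, and 1 passed higher in U87, with the lane term and against the same shares of all genes. SEMA6B, a transmembrane ligand of class A plexins, was 356 and 352 in T98 with LKB1 siRNA, against 76.9 and 137 with control siRNA, without overlap. It rose in T98 by 1.78 ± 0.26 (lane term, adjusted p = 0.00926), and U87, at 730 and 197, against 629 and 281, gave -0.15 ± 0.26 (adjusted p = 0.762). SEMA6A, which binds PLXNA2 and PLXNA4, was 279 and 1532 in T98 with LKB1 siRNA, against 84.5 and 643 with control siRNA. Lane 4 exceeded lane 2 by 2.45 with LKB1 siRNA and 2.91 with control siRNA (log2), more than the siRNA difference within a lane, and the groups overlapped. The lane-term rise was 1.48 ± 0.27 in T98 (adjusted p = 0.015), and without the T98 control library on lane 2 the mean effect in the fit of group means was -0.05.

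SEMA5A, a ligand of PLXNB3, was 2541 and 3357 in U87 with LKB1 siRNA, against 1164 and 1875 with control siRNA, without overlap. The rise in U87 was 0.98 ± 0.19 (lane term, adjusted p = 0.0187), and T98 gave 0.24 ± 0.19 (adjusted p = 0.418). SEMA7A, a membrane-anchored semaphorin that binds PLXNC1 and integrins containing ITGB1, was 210 and 72.4 in T98 with LKB1 siRNA, against 469 and 134 with control siRNA. It fell in T98 by 1.01 (SE 0.21, lane term, adjusted p = 0.0232), with overlapping groups. In U87 it was 5030 and 10439 with LKB1 siRNA, against 4604 and 18011 with control siRNA, and the lanes moved in opposite directions. SEMA6C and SEMA6D did not pass in either line.

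Class 3 semaphorins, the secreted ligands, gave 0 calls of 6 tested in either line or in the mean effect, in the limma-trend fit with or without the lane term. At an unadjusted p under 0.05, the lane-term fit had 1 of them in T98, where 34.5% of all genes did so, and 1 in U87, where 27.6% did. SEMA3A, which repels axons through neuropilin 1, was 503 and 345 in U87 with LKB1 siRNA, against 333 and 260 with control siRNA, without overlap, a difference of 0.50 ± 0.14 (lane term, adjusted p = 0.0596, and 0.0477 in edgeR with the lane term). SEMA3B was 164 and 247 in T98 with LKB1 siRNA, against 85.5 and 218 with control siRNA, and 671 and 295 in U87, against 561 and 187. It was higher in all 4 lane pairs, by 0.18 to 0.94, and its mean effect was 0.51 ± 0.16 (lane term, adjusted p = 0.0556, and 0.0446 in edgeR with the lane term).

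ROBO1, the receptor through which SLITs act on axons, was 5484 and 5026 in U87 with LKB1 siRNA, against 1895 and 2462 with control siRNA. The U87 groups stood far apart, and ROBO1 rose by 1.28 ± 0.16 (lane term, adjusted p = 0.00409, and DESeq2 adjusted p = 0.0161). In T98 it was 2200 and 4204 with LKB1 siRNA, against 1765 and 2599 with control siRNA, with overlap and a difference of 0.51 ± 0.16 (adjusted p = 0.0703). The other tested ROBO receptors, ROBO3 and ROBO4, passed in neither line, and ROBO2 held 0 to 4.17 in all libraries.

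SLIT2 and SLIT3 were the tested SLIT ligands. SLIT3 was 789 and 483 in U87 with LKB1 siRNA, against 1579 and 681 with control siRNA, and the groups overlapped. The U87 difference was -0.75 ± 0.29 (lane term, adjusted p = 0.148, and 0.0248 in edgeR with the lane term). In T98 SLIT3 was 4.49 and 1.82 with LKB1 siRNA, against 8.52 and 7.58 with control siRNA, all below the value of 10 used as the filter, which SLIT3 passed only through U87. Its T98 difference of -1.20 ± 0.29 (lane term, adjusted p = 0.0347, but 0.151 in edgeR with the lane term) rests on 4 and 2 reads, against 8 and 8 reads, and is given no weight though counted among the 10 T98 calls. SLIT2 was 24.4 and 50.3 in U87 with LKB1 siRNA, against 10.7 and 31.6 with control siRNA, and the groups overlapped. It rose by 0.89 ± 0.20 (lane term, adjusted p = 0.0297, but 0.0688 in edgeR with the lane term), and in T98, at 1941 and 1212 against 2148 and 1351, the difference was -0.15 ± 0.20 (adjusted p = 0.623).

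Of 4 tested netrins and 6 tested netrin receptors, the limma-trend fit with the lane term called 1 netrin in T98, where it called 15.8% of all genes, and 0 of either in U87, where it called 11.2%. NTN4, a netrin of basement membranes, was 415 and 317 in T98 with LKB1 siRNA, against 928 and 435 with control siRNA. It fell in T98 by 0.81 (SE 0.21, adjusted p = 0.0427), without overlap. In U87 it was 138 and 141 with LKB1 siRNA, against 174 and 165 with control siRNA, also without overlap but with a smaller difference of -0.28 ± 0.21 (adjusted p = 0.445). DCC, the netrin receptor for attraction, was 44.8 and 178 in U87 with LKB1 siRNA, against 14.9 and 56.5 with control siRNA. The U87 difference was 1.58 ± 0.42 (lane term, adjusted p = 0.0519 in limma-trend and 0.0105 in edgeR). In T98 DCC had 1 and 2 reads with LKB1 siRNA, against 0 and 0 with control siRNA, and it passed the filter only through U87. Its call in the mean effect (1.45 ± 0.30, limma-trend with the lane term, adjusted p = 0.0121, and 0.0547 in edgeR) draws on those T98 reads and is given no weight.

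Of 3 tested teneurins, the limma-trend fit with the lane term called 2 higher in U87, where it called 11.2% of all genes, and 0 in T98, where it called 15.8%. In edgeR with the lane term ODZ3 was also called lower in T98 (log2 -0.57, adjusted p = 0.0492, and 0.0561 in limma-trend). ODZ2 (TENM2) had the largest U87 difference of the tested members, at 1749 and 1282 with LKB1 siRNA, against 217 and 222 with control siRNA. Its U87 groups stood far apart, and it rose by 2.76 ± 0.33 (lane term, adjusted p = 0.00365, and DESeq2 adjusted p = 8.16e-05). In T98 it was 105 and 26.8 with LKB1 siRNA, against 39.4 and 26.5 with control siRNA, so that only lane 2 differed, and the difference was 0.71 ± 0.33 (adjusted p = 0.171). ODZ4 (TENM4) was 634 and 813 in U87 with LKB1 siRNA, against 242 and 446 with control siRNA, without overlap, and rose by 1.13 ± 0.29 (lane term, adjusted p = 0.0469). In T98 ODZ4 did not exceed 5.61, and it passed the filter only through U87. Its call in the mean effect was 1.03 ± 0.20 (limma-trend with the lane term, adjusted p = 0.0107, and 0.0589 in edgeR with the lane term). That call draws on few T98 reads and is given no weight.

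Whether the knockdown difference itself differed between the lines was tested as T98 effect minus U87 effect. With group means 0 of 45 members passed, as did 0% of all genes, with 2 members at an unadjusted p under 0.05, against 2.57% of all genes. edgeR called 0, against 0% of all genes, and DESeq2 called 0, against 0.084%. With the lane term 0 passed, where 0.476% of all genes did, with 13 members at an unadjusted p under 0.05, against 14.8% of all genes. SEMA6B had the smallest adjusted p, at 0.0807, for a difference of 1.92 ± 0.37, and 1 member passed without the T98 LKB1 or control library on lane 4. ODZ3, SEMA3A, SEMA6D and SLIT2 were lower in both T98 lanes and higher in both U87 lanes, which is 4 members, against 5.03% of all genes, and 0 members did the opposite, against 6.46%. ODZ2 gave -2.06 ± 0.46 (adjusted p = 0.113) and SEMA6A gave 1.60 ± 0.38 (adjusted p = 0.123). A call of SEMA6B in T98 and of ODZ2 in U87 is therefore not shown to be particular to 1 line.

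T98 was set against U87 with control siRNA in both, and here the members differed most. With group means 24 of 45 members passed, or 53.3%, against 37.7% of all genes, with 11 higher and 13 lower in T98, against 18.3% and 19.5% of all genes in each direction. With the lane term 32 passed, or 71.1%, against 63.3%. That fit compares the lines at the lane 2 level fitted from all 4 libraries of each line. All 4 T98 libraries lay above all 4 U87 libraries for 15 members, or 33.3%, against 25.7% of all genes, and below them for 13, or 28.9%, against 25.8%. Among the members in these counts, NTNG1, ODZ4, SLIT3, DCC and UNC5D passed the filter on low values only through U87, and UNC5A and NTN1 only through T98. Genes kept in this way are selected toward a difference between the lines, so their calls are no separate support for one. Below, differences are log2, T98 minus U87, from the fit of group means.

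**Figure D4:**
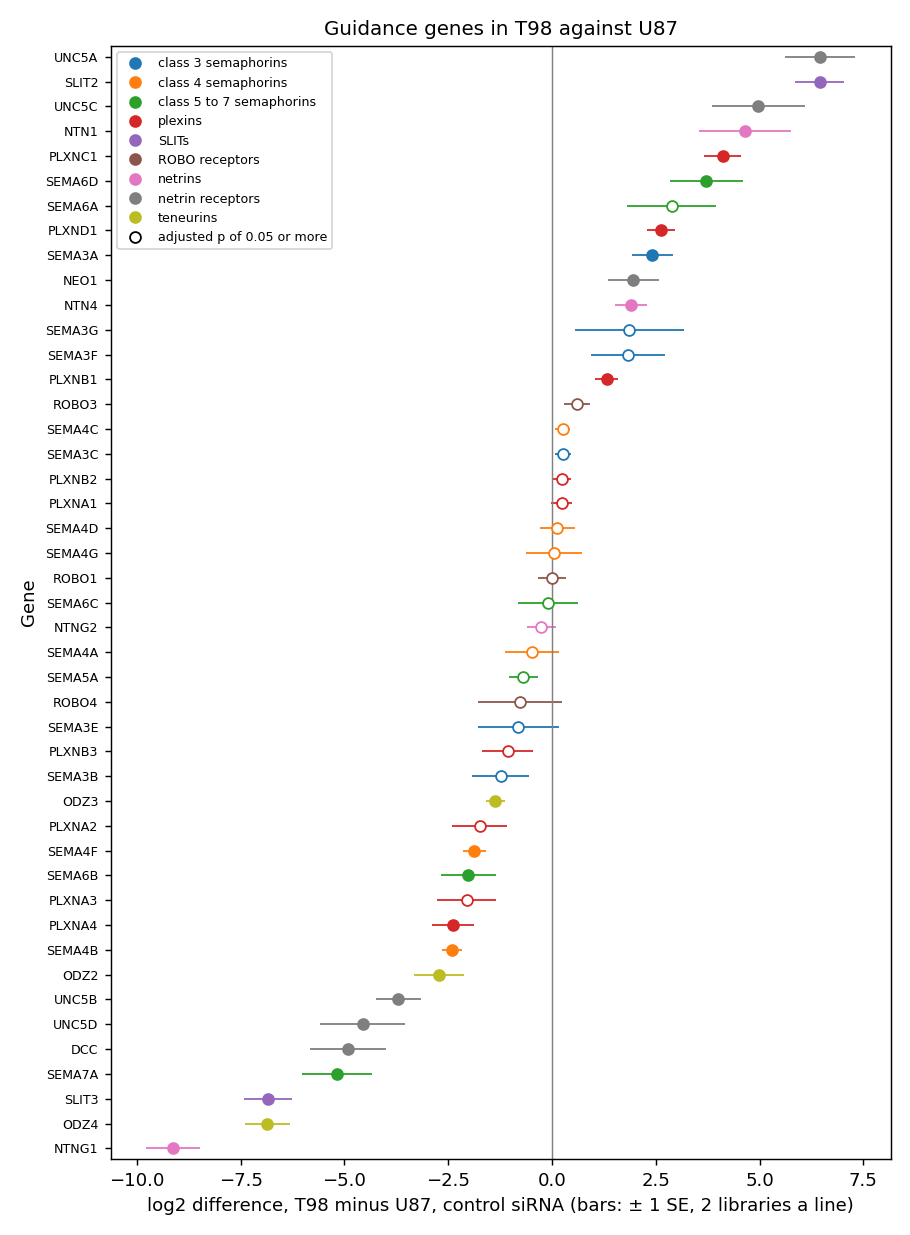
The log2 difference of the 45 tested members, T98 minus U87 with control siRNA (x axis; bars, ± 1 SE from the fit of group means with 2 libraries a line), with filled points for members past the threshold. UNC5A and SLIT2 lie farthest to the right, at 6.46 and 6.45, and NTNG1, ODZ4 and SLIT3 farthest to the left, at -9.13, -6.86 and -6.84.

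The SLIT ligands were divided between the lines. SLIT2 was 2148 on lane 2 and 1351 on lane 4 in T98, against 10.7 on lane 2 and 31.6 on lane 5 in U87, a difference of 6.45 ± 0.59 (adjusted p = 0.000243). SLIT3 ran the other way, at 8.52 and 7.58 in T98, against 1579 and 681 in U87, a difference of -6.84 ± 0.57 (adjusted p = 0.000164). Their receptor ROBO1 had values of 1765 and 2599 in T98, against 1895 and 2462 in U87, a difference of -0.01 ± 0.34 (adjusted p = 0.979).

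The 6 tested netrin receptors all passed with group means, 3 in each direction, where 37.7% of all genes passed in either direction. However, UNC5A, UNC5D and DCC passed the filter only through the line where they are high, so their calls are favoured by selection. The repulsive receptor UNC5A was 175 and 261 in T98, against 0.0286 and 4.82 in U87 (6.46 ± 0.84, adjusted p = 0.00111), though the U87 values rest on 0 and 5 reads and UNC5A overlaps HK3 on the opposite strand by 31 bases. UNC5C was 104 and 343 in T98, against 2.18 and 10.6 in U87 (4.97 ± 1.12, adjusted p = 0.0119). NEO1, which also binds repulsive guidance molecules, was 2679 and 6189 in T98, against 1036 and 1063 in U87 (1.96 ± 0.61, adjusted p = 0.0384). Without the T98 control library on lane 4 NEO1 gave 1.35 (adjusted p = 0.185), and its adjusted p was 0.119, 0.0999, 0.0525 and 0.0517 without the U87 control library on lane 2 or 5 or the U87 LKB1 library on lane 2 or 5. The other 3 were the higher in U87. UNC5B was 158 and 267 in T98, against 1880 and 3842 in U87 (-3.70 ± 0.54, adjusted p = 0.00185). UNC5D was 0.0278 and 3.84 in T98, against 54.9 and 48.7 in U87 (-4.56 ± 1.02, adjusted p = 0.0112). The calls were lost for UNC5C without the T98 control library on lane 4 (adjusted p = 0.0682) or the U87 control library on lane 2 (0.0661), and for UNC5D without the lane 2 control library of T98 (0.0637) or of U87 (0.0535). DCC had 0 reads over both T98 control libraries, against 73 reads in U87, which is at least 24.4-fold lower in T98 with a floor of 3 reads over the group (adjusted p = 0.0055).

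Of the netrins, NTN1, the ligand of DCC and the UNC5 receptors, was 102 and 73.0 in T98, against 0.0537 and 10.6 in U87 (4.65 ± 1.10, adjusted p = 0.0142, and 0.0758 without the T98 control library on lane 2). The U87 values rest on 0 and 11 reads, and the NTN1 difference was 2.92 without the U87 control library on lane 2 (adjusted p = 0.0423). NTN4 was 928 and 435 in T98, against 174 and 165 in U87 (1.90 ± 0.39, adjusted p = 0.00794). NTNG1, a membrane-anchored netrin, had the largest difference of the set, at 2 reads in T98, against 2001 reads in U87. The ratio of U87 to T98 was 1004, with a 95% counting interval of 278 to 8294 that covers counting error only, and the difference was -9.13 ± 0.64 (adjusted p = 9.74e-05). NTNG2 lay at 61.9 and 77.9 in T98, against 82.4 and 84.0 in U87, and did not pass.

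The 3 tested teneurins all passed as lower in T98, where 19.5% of all genes did. Of them, ODZ4 passed the filter only through U87, so its call is favoured by selection. ODZ3 (TENM3) was 1685 and 1191 in T98, against 3641 and 3711 in U87 (-1.37 ± 0.23, adjusted p = 0.00341). ODZ2 was 39.4 and 26.5 in T98, against 217 and 222 in U87 (-2.73 ± 0.60, adjusted p = 0.0109, and 0.0547 without the T98 control library on lane 4). ODZ4 was 1.09 and 2.86 in T98, against 242 and 446 in U87 (-6.86 ± 0.54, adjusted p = 0.000137). No T98 library of any of these 3 reached the lowest U87 library.

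Plexins of classes C and D were higher in T98. PLXNC1 was 424 and 468 in T98, against 17.0 and 36.4 in U87 (4.11 ± 0.45, adjusted p = 0.000508), whereas its ligand SEMA7A was 469 and 134 in T98, against 4604 and 18011 in U87 (-5.18 ± 0.85, adjusted p = 0.00321). PLXND1, a receptor for SEMA3E, was 5243 and 7821 in T98, against 913 and 1173 in U87 (2.63 ± 0.34, adjusted p = 0.00114). PLXNB1 was 548 and 780 in T98, against 270 and 253 in U87 (1.32 ± 0.28, adjusted p = 0.00866, and 0.0524 without the T98 control library on lane 4). PLXNA4 alone of this family was lower in T98 by the fit of group means, at 10.7 and 14.3 in T98, against 55.0 and 86.0 in U87 (-2.38 ± 0.50, adjusted p = 0.00865, and 0.0541 without the U87 control library on lane 5). With the lane term PLXNA2, PLXNA3 and PLXNB3 also passed lower in T98 and PLXNA1 passed higher. PLXNA1 differed by 0.75 on lane 2 and by -0.28 between lane 4 of T98 and lane 5 of U87. It gave 0.23 with group means, 0.58 with the lane term, and -0.01 or -0.04 with group means when the lane 2 control library of T98 or of U87 was left out.

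Among semaphorins, SEMA3A was 2355 and 1062 in T98, against 333 and 260 in U87 (2.42 ± 0.49, adjusted p = 0.00752). SEMA6D, a ligand of PLXNA1, was 942 and 1657 in T98, against 42.4 and 206 in U87 (3.72 ± 0.88, adjusted p = 0.0145). That call was lost without the T98 control library on lane 4 (adjusted p = 0.0713) or the U87 control library on lane 2 (0.0698). SEMA4B was 1453 and 1957 in T98, against 10889 and 7390 in U87 (-2.41 ± 0.25, adjusted p = 0.000424), and SEMA4F was 215 and 336 in T98, against 1030 and 951 in U87 (-1.87 ± 0.27, adjusted p = 0.00184). SEMA6B was 76.9 and 137 in T98, against 629 and 281 in U87 (-2.02 ± 0.66, adjusted p = 0.0444). Its adjusted p was 0.2 and 0.0667 without the T98 control library on lane 2 or 4, 0.0652 and 0.064 without the T98 LKB1 library on lane 2 or 4, and 0.217 without the U87 control library on lane 2. The control libraries of the lines did not overlap for any of these 5 semaphorins. With the lane term SEMA3B and SEMA3E also passed lower in T98 and SEMA3F and SEMA6A higher. That fit compares the levels fitted for lane 2. Between single libraries, the log2 difference of T98 from U87 was -2.70 for SEMA3B on lane 2, but 0.22 between lane 4 of T98 and lane 5 of U87, and -2.20 and 0.58 for SEMA3E. SEMA3E, at 3.36 and 30.5 in T98, against 19.0 and 20 in U87, gave -1.82 with the lane term, -0.81 with group means and 0.62 with group means without the T98 control library on lane 2.

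Per kilobase of transcript, the control levels ordered differently in the lines. In T98 they ran from SEMA3C at 1394 through PLXNB2 at 1248, PLXND1 at 931, NEO1 at 623, PLXNA1 at 473, SEMA4B at 431, SEMA4C at 378 and SLIT2 at 351. In U87 they ran from SEMA7A at 3266 through SEMA4B at 2310, SEMA3C at 1166, PLXNB2 at 1060, UNC5B at 414, PLXNA1 at 404, PLXNA3 at 376 and ODZ3 at 339. Neighbours in these orders were not tested against each other. The 2 libraries of a group lay far apart for some of them: PLXND1 values on lanes 2 and 4 in T98 were 5243 and 7821, and SEMA7A values on lanes 2 and 5 in U87 were 4604 and 18011.

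Partners of these families were described from lists of other surface molecules and of intracellular proteins. Of the 15 tested co-receptors and other ligands or receptors, the limma-trend fit with the lane term called 2 higher and 1 lower in T98, or 20%, against 15.8% of all genes, and 1 higher in U87, or 6.67%, against 11.2%. NRP1, the co-receptor of SEMA3A, was 32596 and 22038 in U87 with LKB1 siRNA, against 23118 and 15244 with control siRNA, and rose by 0.51 ± 0.11 (adjusted p = 0.0294). L1CAM, an adhesion molecule that joins the SEMA3A receptor, was 4085 and 3025 in T98 with LKB1 siRNA, against 2055 and 1697 with control siRNA, and rose by 0.91 ± 0.19 (adjusted p = 0.0218). NRP2, the co-receptor of SEMA3F, rose in T98 by 0.43 ± 0.11 (adjusted p = 0.0431), and GPC1, a proteoglycan that binds SLIT, fell in T98 by 0.48 (SE 0.12, adjusted p = 0.0373).

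Of the 26 tested intracellular partners, 3 passed higher and 4 lower in T98, or 26.9%, against 15.8% of all genes, and 2 higher and 2 lower in U87, or 15.4%, against 11.2%, in limma-trend with the lane term. DPYSL3, a collapsin response mediator protein, was 4674 and 4352 in T98 with LKB1 siRNA, against 17492 and 9540 with control siRNA, and 1662 and 1333 in U87, against 3720 and 2789. It fell in the mean effect by 1.32 (SE 0.22, adjusted p = 0.0347) and was the 1 gene of both lists past the threshold with group means. Leaving out 1 library at a time gave it adjusted p of 0.038 to 0.123, past the threshold in 1 of 8 fits. CRMP1, of the same protein family, was 2769 and 3590 in T98 with LKB1 siRNA, against 1163 and 2582 with control siRNA, and rose by 0.86 ± 0.20 (lane term, adjusted p = 0.0287). DPYSL4 was 342 and 2087 in U87 with LKB1 siRNA, against 181 and 953 with control siRNA, and rose by 1.02 ± 0.13 (lane term, adjusted p = 0.00461). MICAL2, of the actin-oxidising MICAL family, was 7036 and 6216 in U87 with LKB1 siRNA, against 2800 and 3945 with control siRNA, and rose by 0.99 ± 0.23 (lane term, adjusted p = 0.032). SRGAP3, of a family of proteins that bind ROBO receptors, was 24.3 and 92.4 in T98 with LKB1 siRNA, against 7.65 and 52.4 with control siRNA, and rose by 1.18 ± 0.32 (lane term, adjusted p = 0.0465). DOCK1, an activator of RAC, was 1262 and 2471 in T98 with LKB1 siRNA, against 3180 and 3232 with control siRNA, and fell by 0.86 (SE 0.21, lane term, adjusted p = 0.0355). FYN, a kinase downstream of SEMA3A, rose in T98 by 0.78 ± 0.14 (lane term, adjusted p = 0.0143). ABL1, whose Drosophila counterpart acts in Robo signalling, fell in T98 by 0.60 (SE 0.13, lane term, adjusted p = 0.023), and ABLIM1, an actin-binding protein, fell in U87 by 0.98 (SE 0.22, lane term, adjusted p = 0.0328).

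Between the lines, 3 of the 15 surface partners were higher and 4 lower in T98 with group means, or 46.7%. Of the 26 intracellular partners 6 were higher and 7 lower, or 50%, and the share of all genes was 37.7%. Among the tested partners, CD72, LRRC4 and RND1 passed the filter only through U87 and DPYSL5 only through T98. Partners kept in this way are selected toward a difference between the lines. L1CAM was 2055 and 1697 in T98, against 4.36 and 34.5 in U87 (7.08 ± 1.09, adjusted p = 0.00234). NRP2 was 1302 and 659 in T98, against 12151 and 14101 in U87 (-3.82 ± 0.37, adjusted p = 0.000318), and NRP1 was 4794 and 3695 in T98, against 23118 and 15244 in U87 (-2.16 ± 0.31, adjusted p = 0.00181). FYN was 95 and 150 in T98, against 6839 and 4415 in U87 (-5.51 ± 0.36, adjusted p = 7.89e-05). DPYSL3 was 17492 and 9540 in T98, against 3720 and 2789 in U87 (adjusted p = 0.00225). The remaining partners with the smallest adjusted p gave 1.35 ± 0.26 for GPC1, 2.88 ± 0.91 for FLRT1, 1.35 ± 0.23 for NCK1 and 1.85 ± 0.37 for FARP1, and lower in T98 -1.46 ± 0.25 for ITGB1, -1.16 ± 0.18 for ABL1 and -1.53 ± 0.26 for GIPC1 (adjusted p = 0.00224 to 0.0414).

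Markers of other cell types were read beside these results. The summed value of the 4 neuronal markers was 454 to 907 in T98 with LKB1 siRNA, against 90.9 to 298 with control siRNA, and 2380 to 2516 in U87 with LKB1 siRNA, against 713 to 902 with control siRNA. SNAP25 held most of this sum, at 439 and 898 in T98 with LKB1 siRNA, against 85.5 and 288 with control siRNA, and 2386 and 2226 in U87, against 778 and 577, while RBFOX3 did not exceed 7.64 and STMN2 did not exceed 2.89. Endothelial markers summed to at most 94.6 and immune markers were led by CD68, at 12020 to 22934 in U87 and 538 to 1125 in T98, with PTPRC at most 9.63. The 4 epithelial markers summed to 2835 to 4242 in T98 with LKB1 siRNA, against 2592 to 3007 with control siRNA. In U87 they summed to 285 to 310 with LKB1 siRNA, against 214 to 234 with control siRNA. KRT18 held most of the T98 sum, at 2190 to 3844, and was 29.6 to 71.1 in U87. KRT8 was 301 to 391 in T98 and 122 to 175 in U87. EPCAM went the other way, at 2.37 to 9.52 in T98 and 55.7 to 63.3 in U87. CDH1 was 1.09 to 4.65 in T98 and 3.8 to 24.8 in U87. The part of these cell-type markers in the differences of the guidance genes was not tested.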

How the data were processed

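The submitters' processing notes name TopHat2 2.0.8b, edgeR and the builds hg19 and GRCh37. Which counter, annotation and edgeR version they used is not given in the sources used here. TruSeq RNA kit V2 libraries were made, per the labels' protocols. In the deposited table each gene has 1 normalised signal value for each library. Neither the labels nor the header names its scale, but the values follow edgeR pseudo-counts with a common dispersion of 0.06803. Inverting that step returned whole reads, within 0.05 read, for 99.52% to 100% of the 18815 values per library. Applying the step to those reads gave back 98.42% to 100% of the values, within a relative 1e-04. In the LKB1 siRNA libraries of lanes 4 and 5 too few low values were whole multiples of 1 step to show reads directly, so their reads rest on the inversion alone.

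Genes with a value of 10 or more in at least 2 libraries were tested, which kept 14282. Log2(value + 1) was fitted for all 8 libraries together by limma-trend, from limma 3.58.1 under R 4.3.3, with 4 group means and hence 4 residual degrees of freedom. Two-sided p-values were adjusted by Benjamini-Hochberg across the genes kept, with a threshold of 0.05. Fold changes on this scale understate the change of low genes. A second fit added a lane term for each line (2 residual degrees of freedom), because the lane difference correlated across genes between the siRNA groups of a line at 0.717 in T98 and 0.809 in U87, against 0.124 to 0.177 between lines. The pairing comes from lanes named in the column headers, not from replicate numbers, which follow sample order. Alternatives were pseudocounts of 0.5 and 5, no filter, TMM scaling, edgeR 4.0.16 quasi-likelihood and DESeq2 1.42.0 on the recovered reads, and leaving out each library. edgeR, TMM and leave-one-out fits with the lane term were added after seeing the data. The procedure was checked on simulated reads.

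Named with values were members past the threshold in either fit of a comparison (at most 12 per direction), and the highest member of each family. From each partner list up to 3 genes per direction were named. SEMA6B in the comparison of lines, and members named as not past the threshold, were chosen after their values were seen. Members and lists were chosen with earlier results of these data known. Motifs were searched in RefSeq GRCh38.p14 promoters; other coordinates are those of the deposited table (hg19), with starts counted from 1.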

Additional observations from a re-analysis of the deposited data

Results flagged for a closer look

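ODZ3, SEMA3A, SEMA6D and SLIT2 were lower with LKB1 siRNA in both T98 lanes and higher in both U87 lanes, which is 8.89% of the 45 tested members, against 5.03% of all tested genes. The T98 effect minus the U87 effect was -1.05 for ODZ3, -0.61 for SEMA3A, -1.11 for SEMA6D and -1.04 for SLIT2 (log2). For none of the 4 did the test of this difference pass: adjusted p was 1 with group means for each, and 0.111, 0.233, 0.183 and 0.163 with the lane term (limma-trend). ODZ3 was 961 and 948 in T98 with LKB1 siRNA, against 1685 and 1191 with control siRNA, and 5926 and 4435 in U87, against 3641 and 3711, so its groups stood apart in opposite directions in the lines. SEMA6D was 560 and 1597 in T98 with LKB1 siRNA, against 942 and 1657 with control siRNA, and 84.6 and 281 in U87, against 42.4 and 206. The opposite pattern, higher in both T98 lanes and lower in both U87 lanes, was held by 0 members, against 6.46% of all tested genes.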

How the results depend on the processing

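The replicate block by lane changed the knockdown counts most, giving 10 members in T98, 11 in U87 and 18 in the mean effect, against 0 in each without it, whereas the difference between the lines' effects gave 0 and T98 against U87 gave 32, against 24 without it. DESeq2 without a block called 4 in U87 and 5 in the mean effect. Pseudocounts of 0.5 and 5, TMM scaling and edgeR called 0, 0, 0, 0 and 24 in the 5 comparisons, and dropping the filter gave 19 in place of 24. Without 1 library, group means called 0 to 1 members in the mean effect and 20 to 24 between lines. Under the lane term, leaving out 1 library gave 0 to 12 in T98, 0 to 14 in U87, 0 to 20 in the mean effect, 0 to 1 in the difference and 25 to 32 between lines. Without a U87 library the spread of that fit comes from T98 alone, which has 1 residual degree of freedom. Among differences past the threshold in either limma-trend fit, signs turned with group means and 1 library left out for PLXNA3 in T98 (-0.31 to 1.50), SEMA6A in the mean effect (-0.05 to 1.41), and between lines for PLXNA1 (-0.04 to 0.50) and SEMA3E (-2.24 to 0.62). The cause was not tested. Depth limits DCC, NTNG1, UNC5D, ODZ4 and SLIT3 in T98 and UNC5A, NTN1 and UNC5C in U87, where few reads were counted.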
